A study of Mus musculus with 8 samples.

Results

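The lysosome genes are the 138 genes, of 21879 in the deposited count table, whose pathway annotation there names Lysosome. Of them, 111 passed edgeR's expression filter and were tested, among 11576 tested genes. The other 27 had too few counts, with 14 at 0 in every library, among them the dendritic cell protein Lamp3 and the placental cathepsin Ctsj. They were measured in TCMK-1, an immortalised line of tubular epithelium from mouse kidney, by sequencing of poly(A)-selected RNA. The 4 control libraries came from cells carrying a control shRNA and the 4 knockdown libraries from cells carrying an shRNA against smgGDS, the small GTPase exchange factor and chaperone encoded by Rap1gds1. Both groups were exposed to 20 µM cisplatin, so the comparison concerns the knockdown in drug-treated cells. The labels do not say that libraries of a group are separate cultures or clones, so p-values measure the spread between these libraries, which may be technical.

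Lysosomes are acidic organelles in which proteins, glycans, lipids and nucleic acids delivered by endocytosis and autophagy are broken down. Soluble hydrolases reach them mainly through mannose 6-phosphate receptors and clathrin-coated carriers, a vacuolar ATPase (V-ATPase) pumps in protons, and heavily glycosylated membrane proteins line the limiting membrane. Tubular epithelial cells depend on lysosomes to degrade filtered protein taken up from the urine.

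Library totals lay between 11560977 and 16059158 counts. Rap1gds1 was at 15.5 to 17.0 CPM in the controls and 2.36 to 2.80 CPM in the knockdown (log2 fold change -2.62, SE 0.13), where CPM relates a gene's counts to the library total scaled by edgeR's TMM factor. On the leading principal component the controls spanned -16.5 to -8.86 and knockdown replicates 1 to 3 spanned 8.86 to 9.58, while knockdown replicate 4 stood apart at 20.9. Of 12 tubular epithelial markers 8 were tested, and Cdh1 (E-cadherin) and Cdh16 were among the 4 that were too low. The endocytic receptors Lrp2 and Cubn were tested but low, at 0.06 and 0.10 FPKM in the controls. Of 10 leukocyte markers 4 were tested and 2 fell, Cd14 (47.0 ± 2.88 FPKM in the controls, SD, n = 4, log2 fold change -0.36, SE 0.06) and Cd74 (11.0 ± 0.40 FPKM, log2 fold change -0.52, SE 0.11). Csf1r and Mpeg1 were below 1 FPKM and not called, Adgre1 and Tyrobp were at 0 in all libraries, and Ptprc had 1 count in 1 library. That list's summed FPKM was 54.8 to 61.3 in the controls and 38.0 to 47.0 in the knockdown. The fibroblast list, with 4 of 6 markers tested and all 4 higher, was at 53.6 to 57.6 FPKM and 62.0 to 70.0 FPKM. Col1a1 made most of that sum, with means of 48.2 and 54.25 FPKM. Of 6 endothelial markers 1 was tested, Flt1, which rose from 2.19 FPKM in the controls to 2.975 FPKM (log2 fold change 0.60, SE 0.11). The tubular list was at 69.5 to 76.2 FPKM and 58.0 to 61.4 FPKM. Most of it was Aqp1, the only tubular marker called, at 57.1 and 45.0 FPKM (log2 fold change -0.29, SE 0.04). The part of these shifts in the results was not tested, and in bulk RNA fewer cells of a kind and less RNA per cell cannot be told apart.

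In the knockdown 23 of the 111 lysosome genes rose and 10 fell by small amounts (edgeR quasi-likelihood test, adjusted p under 0.05). Those that rose included abundant transcripts of the lumen and the membrane, namely the cathepsins Ctsl and Ctsb, the cholesterol carrier Npc2, the membrane glycoproteins Cd63, Lamp1 and Lamp2 and the proton pump subunit Tcirg1. Those that fell included the hyaluronidase Hyal1, the membrane protein Laptm4b, the cystine exporter Ctns and the phospholipase Pla2g15. The rises had log2 fold changes of 0.10 to 0.42, with a median of 0.23, and none of the 33 changes reached 2-fold. Over all tested genes 20.2% were called, 11.1% as higher and 9.15% as lower, against 29.7% of the lysosome genes. The median log2 fold change (knockdown minus control) was -0.0007 over the 111 genes and -0.0033 over all tested genes. The groups did not overlap, with all knockdown libraries above or all below all controls, in 24 and 11 of the 111 genes, against 11.5% and 9.61% of all tested genes.

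The balance of rises and falls rested on the scaling. With library totals in place of TMM factors 14 lysosome genes were higher and 16 lower (background 6.62% and 16.9%), and on the authors' FPKM 12 were higher and 13 lower (background 5.11% and 12.8%). The median log2 fold change of the lysosome genes was then -0.057 and -0.052, and that of all tested genes -0.059 and -0.051. None of the 33 called genes changed sign under any of the 19 alternatives run, although 23 lost their call, or were not tested, in at least 1 of them. Without knockdown replicate 4, 18 rose and 8 fell (background 8.85% and 6.87%), and without control replicate 2, 16 rose and 6 fell (background 9.13% and 6.97%).

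**Figure D1:**
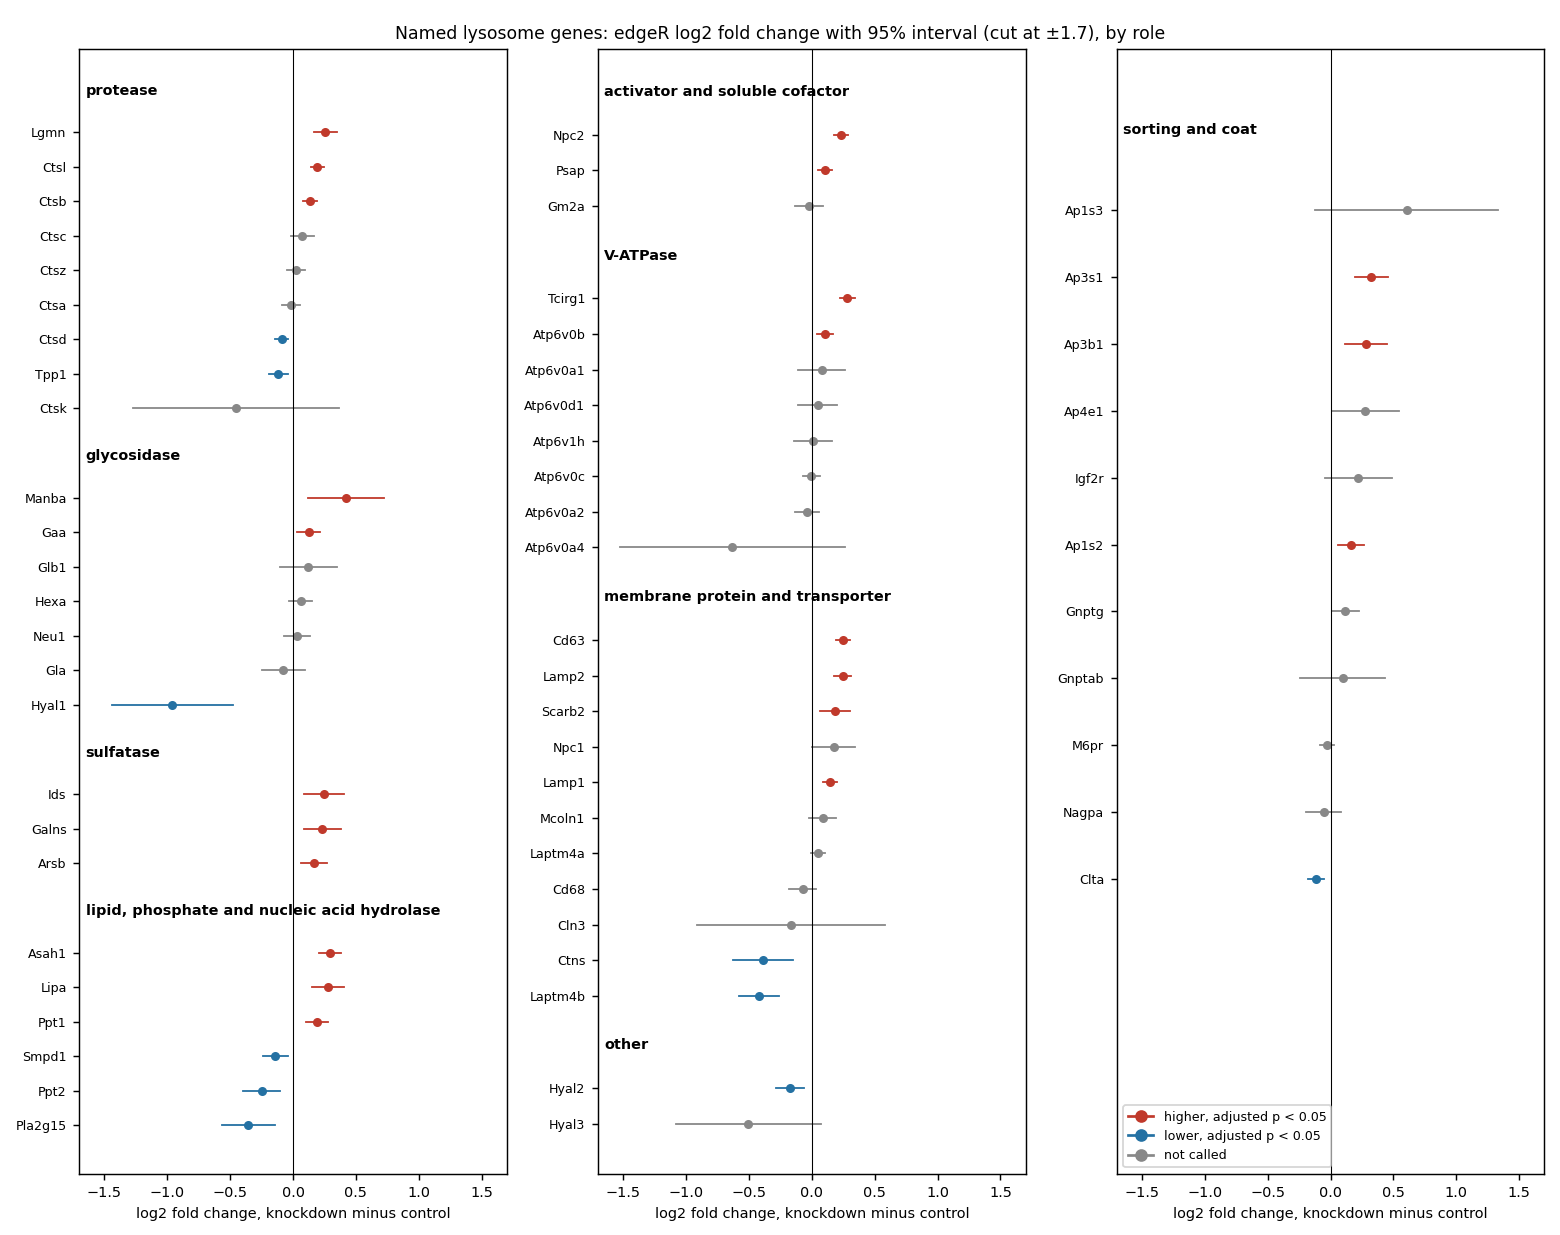
Log2 fold change (knockdown minus control, horizontal axis) of the 60 tested lysosome genes named in the text, ordered within its role, with bars for the 95% interval from edgeR (cut at -1.7 and 1.7) and colour for the call. Most points lie within 0.3 of 0, and the wide bars belong to genes with few counts such as Ctsk, Atp6v0a4 and Ap1s3.

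Of 44 tested genes grouped as hydrolases, the enzymes that break down the cargo, 12 rose and 6 fell. That was 40.9% called, against 20.2% of all tested genes. By group it was 38.5% for proteases, 50% for sulfatases and 75% for lipid, phosphate and nucleic acid hydrolases. For glycosidases it was 23.5%, near that of all tested genes. With library totals 7 of the 44 were higher and 8 lower (background 6.62% and 16.9%), and on FPKM 6 and 7 (background 5.11% and 12.8%). Without control replicate 2, 7 rose and 3 fell (background 9.13% and 6.97%). Without knockdown replicate 4, 8 rose and 5 fell (background 8.85% and 6.87%). Among 13 tested proteases, 3 rose and 2 fell. The most abundant was Ctsl, encoding the endopeptidase cathepsin L, at 1212 ± 16.5 FPKM in the controls and 1331 ± 17.8 FPKM in the knockdown (SD, n = 4 per group; FPKM are the authors' values per transcript length and library). Ctsl had 1944, 1966, 1957 and 2002 CPM in control replicates 1 to 4 and 2249, 2249, 2203 and 2286 CPM in knockdown replicates 1 to 4. The groups did not overlap, and the log2 fold change was 0.19 (SE 0.03, edgeR adjusted p = 1.77e-07). Ctsb, encoding cathepsin B, had 1091, 1069, 1129 and 1139 CPM in the controls and 1198, 1197, 1214 and 1255 CPM in the knockdown. All knockdown libraries again lay above all controls (edgeR log2 fold change 0.14 ± 0.03 SE, adjusted p = 0.000232). Lgmn, the asparaginyl endopeptidase legumain that processes cathepsins, rose by 0.25 (SE 0.04), from 88.5 to 101 CPM in the controls to 110 to 121 CPM in the knockdown.

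The aspartic protease Ctsd went the other way. It had 1039, 1056, 1050 and 1057 CPM in the controls and 967.6, 967.5, 1004 and 1007 CPM in the knockdown, without overlap (edgeR log2 fold change -0.09 ± 0.03 SE, adjusted p = 0.0109). The tripeptidyl peptidase Tpp1 fell by 0.12 on the log2 scale (SE 0.04), with groups that overlapped. Its call was lost without control replicate 2 or 4 and without knockdown replicate 2 or 3. Once transcript length and GC content were corrected for, neither Ctsd nor Tpp1 was called, although Tpp1 was called when the replicate block was added to that correction. Ctsl and Ctsb have counts that are not whole numbers, which occurs where reads are shared between similar sequences, and are less certain. The remaining proteases, among them Ctsz, Ctsa and Ctsc, had log2 fold changes between -0.45 and 0.07 and were not called.

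Of 17 genes grouped as glycosidases, which remove sugars from glycans and glycolipids, 3 rose and 1 fell. The hyaluronidases Hyal2 and Hyal3 and a fucosidase were counted apart, in a residual group of 4 tested genes. Of these 4 genes 1 fell, the Hyal2 described below, which the counts for glycosidases and for all 44 hydrolases leave out. Hexa, which acts on gangliosides, was at 108 ± 4.51 and 112 ± 9.06 CPM (SD, n = 4 per group) and was not called (edgeR log2 fold change 0.06 ± 0.05 SE, adjusted p = 0.411). Those that rose included the mannosidase Manba (0.42, SE 0.15) and the glycogen-degrading Gaa (0.13, SE 0.05). Manba was not called without any of the control libraries in turn, without knockdown replicate 1, 2 or 4, by DESeq2 or voom, with library totals or on FPKM. Gaa was not called without any of the control libraries in turn, without knockdown replicate 3 or 4, by DESeq2, with library totals or on FPKM. Without knockdown replicate 4, and likewise on FPKM, 1 glycosidase was higher and 2 lower, and with library totals 1 was higher and 3 lower. The galactosidases Gla and Glb1 and the neuraminidase Neu1 had log2 fold changes of -0.08, 0.12 and 0.03 and were not called.

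Hyal1, which cleaves hyaluronan, had the largest fitted fall among the 111 tested lysosome genes, and it fell by 48.6%. It was low, with counts of 72, 102, 59 and 36 in the controls against 34, 45, 26 and 15 in the knockdown. In CPM these were 4.43, 6.15, 4.12 and 3.08 against 2.43, 3.53, 2.08 and 1.198. The groups overlapped, since knockdown replicate 2 lay above control replicate 4 (edgeR log2 fold change -0.96 ± 0.24 SE, adjusted p = 0.00378). The neighbouring hyaluronidase Hyal2, which acts at the cell surface, went from 48.5 ± 0.77 to 43.0 ± 1.53 CPM (SD, n = 4 per group, edgeR log2 fold change -0.17 ± 0.06 SE, adjusted p = 0.0217). Hyal2 was not called without control replicate 1, without knockdown replicate 1 or after the length and GC correction. The third tested member of the family, Hyal3, had a log2 fold change of -0.51 (SE 0.29) and was not called. The 3 genes lie together on chromosome 9 of GRCm38.p6, with Hyal2 at chr9:107567873-107572778, Hyal1 at chr9:107576950-107581699 and Hyal3 at chr9:107581296-107587359. Hyal1 and Hyal3 overlap each other and the gene Naa80 there, and without a stated strand setting their reads cannot be told apart.

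Sulfatases remove sulfate from glycosaminoglycans and sulfolipids, and of 6 tested 3 rose and none fell (0 fell at an unadjusted p under 0.05 by edgeR, and 0 were called lower by DESeq2 or voom, against 7.95% and 9.12% of all tested genes). Ids, the iduronate sulfatase, went from 19.9 ± 1.16 to 23.7 ± 1.34 CPM (SD, n = 4 per group, log2 fold change 0.25, SE 0.08). The galactosamine sulfatase Galns rose by 0.23 (SE 0.07) and the arylsulfatase Arsb by 0.16 (SE 0.05). No sulfatase was called higher without control replicate 2, and 1 was without knockdown replicate 4. The call of Ids needed control replicates 2 and 4 and knockdown replicate 2, that of Galns needed control replicate 2 and knockdown replicates 1 and 4, and that of Arsb needed control replicates 1 and 2 and knockdown replicate 4. None of the 3 was called with library totals or on FPKM, where the group's median of 0.12 became 0.07 in both.

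Hydrolases of lipids, phosphates and nucleic acids split evenly, since of 8 tested genes 3 rose and 3 fell. Asah1, the acid ceramidase, had 103, 105, 109 and 108 CPM in the controls and 127, 124, 125 and 143 CPM in the knockdown. The knockdown libraries were all higher (edgeR log2 fold change 0.29 ± 0.04 SE, adjusted p = 2.07e-06), with knockdown replicate 4 the highest. The acid lipase Lipa rose by 0.28 (SE 0.06) and the palmitoyl thioesterase Ppt1 by 0.19 (SE 0.04). Pla2g15, a lysosomal phospholipase, had 11.63, 14.5, 13.3 and 13.9 CPM in the controls and 10.4, 11.0, 10.6 and 9.59 CPM in the knockdown. Here all controls were higher (edgeR log2 fold change -0.36 ± 0.10 SE, adjusted p = 0.0116), and the call was lost without control replicate 2. The thioesterase Ppt2 fell by 0.25 (SE 0.07) and the acid sphingomyelinase Smpd1 fell by 0.14 (SE 0.05) on the log2 scale. Ppt2 was not called when control replicate 1 or knockdown replicate 4 was left out. Smpd1 was not called when any of control replicates 2, 3 and 4 or knockdown replicates 2 and 4 was left out, nor after the length and GC correction. Only 1 of the 8 fell without control replicate 2 or knockdown replicate 4. Asah1 and Ppt1 have counts that are not whole.

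Among 5 soluble cofactors of the hydrolases 2 rose and none fell, or 40% called, against 20.2% of all tested genes. At an unadjusted p under 0.05 by edgeR 0 of them fell, and 0 were called lower by DESeq2 or voom. Npc2, which binds cholesterol in the lumen and passes it to Npc1, had 1507, 1485, 1544 and 1545 CPM in the controls. In the knockdown it had 1781, 1794, 1716 and 1848 CPM, all above the controls (edgeR log2 fold change 0.23 ± 0.03 SE, adjusted p = 1.39e-08). Psap, the precursor of the saposins that present sphingolipids to their hydrolases, rose by 0.10 (SE 0.03), without a call with library totals or on FPKM. Gm2a, the ganglioside activator, had a log2 fold change of -0.02 (SE 0.06) and was not called.

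**Figure D2:**
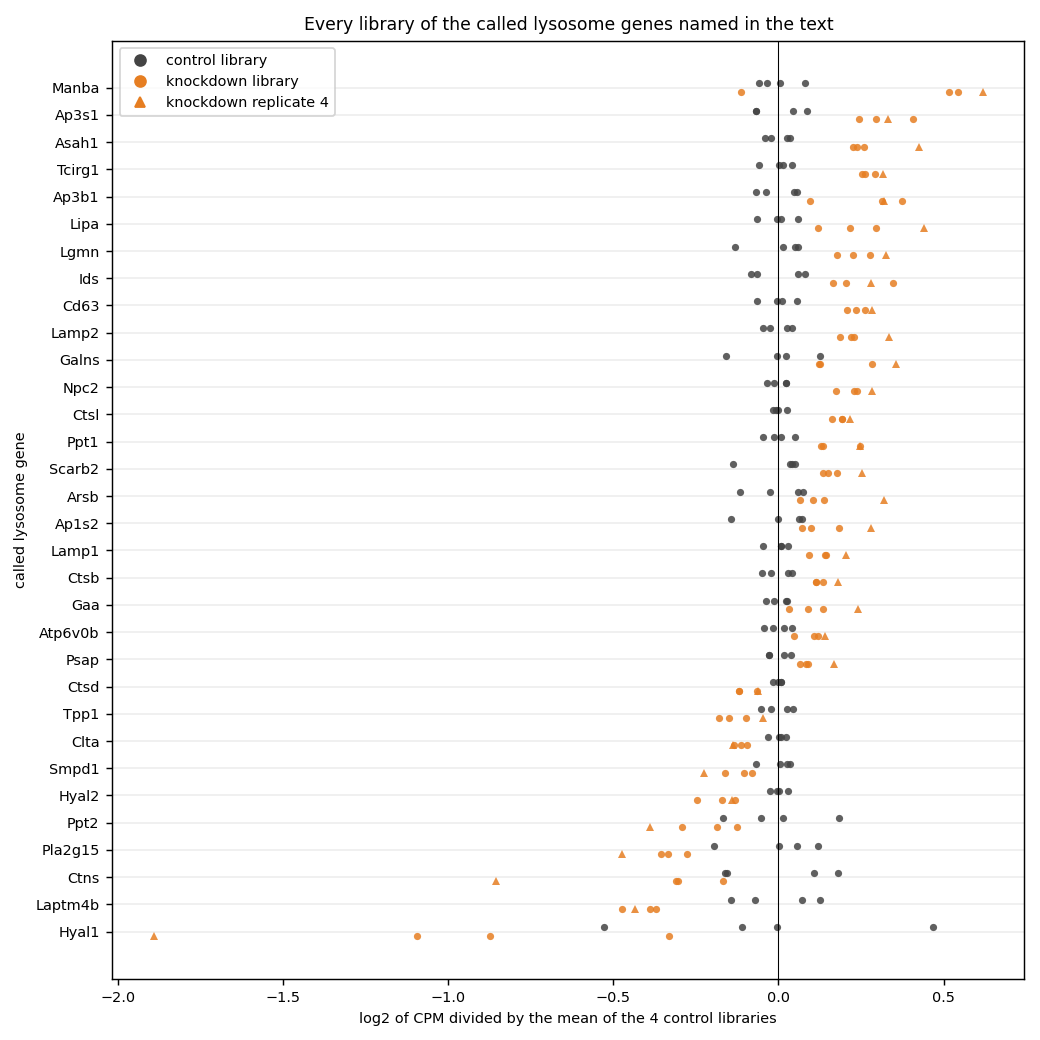
Each library's CPM divided by the mean of the 4 controls (log2, horizontal axis) for 32 of the 33 called lysosome genes, with controls in grey, knockdown in orange and knockdown replicate 4 as triangles. In 26 of these genes the groups do not overlap, and the exceptions include Hyal1, Manba and Tpp1.

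V-ATPase genes were called about as often as all tested genes, at 22.2% against 20.2% in either direction. Of the 9 tested subunits in the annotation 2 rose and none fell (0 fell at an unadjusted p under 0.05 by edgeR, and 0 were called lower by DESeq2 or voom). Tcirg1, the a3 isoform of the membrane-embedded V0 sector, had 361, 346, 371 and 364 CPM in the controls and 442, 433, 430 and 449 CPM in the knockdown. The groups lay well apart (edgeR log2 fold change 0.28 ± 0.03 SE, adjusted p = 2.42e-09), and the call was kept under all 19 alternatives. The other V0 a isoforms were not called, with log2 fold changes of 0.08 for Atp6v0a1, -0.04 for Atp6v0a2 and -0.63 for Atp6v0a4, which was below 1 CPM. Atp6v0b, a proteolipid of the proton-carrying ring, rose by 0.10 (SE 0.03), with no call without control replicate 1 or 3, with library totals or on FPKM. The most abundant subunit, the proteolipid Atp6v0c, was at 806 ± 30.5 and 804 ± 40.9 CPM (SD, n = 4 per group, log2 fold change -0.0039, SE 0.03). The regulatory subunits Atp6v0d1 (0.05, SE 0.08) and Atp6v1h (0.01, SE 0.07) were not called, and their signs changed with the scaling. Of 11 tested V-ATPase genes that the annotation leaves out, mostly of the ATP-hydrolysing V1 sector, 1 was called. This was Atp6v1b2, which fell by 0.18 on the log2 scale (SE 0.05).

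Among 20 tested membrane proteins and transporters 4 rose and 2 fell. That was 30% called, against 20.2% of all tested genes. With library totals 3 were higher and 3 lower, on FPKM 3 and 2, without knockdown replicate 4, 4 and 1, and without control replicate 2, 3 and 1. The background shares for these settings are those given for the hydrolases. Cd63, a tetraspanin of late endosomes and lysosomes, was the most abundant lysosome transcript at 1629 ± 42.0 FPKM in the controls and 1861 ± 31.8 FPKM in the knockdown (SD, n = 4 per group). It had 1439, 1381, 1456 and 1502 CPM in the controls and 1701, 1668, 1733 and 1757 CPM in the knockdown, without overlap (edgeR log2 fold change 0.25 ± 0.03 SE, adjusted p = 5.11e-09). Lamp2, a major glycoprotein of the membrane with a role in autophagy, had 320.5, 325, 341 and 337 CPM in the controls and 385, 388, 376 and 417 CPM in the knockdown. All knockdown libraries were higher (edgeR log2 fold change 0.24 ± 0.03 SE, adjusted p = 2.17e-07). Its relative Lamp1 had 2268, 2183, 2305 and 2271 CPM in the controls and 2486, 2408, 2494 and 2601 CPM in the knockdown. The rise of Lamp1 was smaller but also without overlap (edgeR log2 fold change 0.15 ± 0.03 SE, adjusted p = 5.98e-05). Scarb2, a membrane-spanning receptor of lysosomes, rose by 0.18 (SE 0.06), with no call without control replicate 2 or knockdown replicate 4, with library totals or on FPKM.

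Laptm4b, a membrane-spanning protein of late endosomes, had 23.7, 27.3, 26.2 and 22.6 CPM in the controls and 19.0, 17.99, 19.3 and 18.5 CPM in the knockdown. All controls were higher (edgeR log2 fold change -0.42 ± 0.08 SE, adjusted p = 0.000119), and the call was kept under all 19 alternatives. Its relative Laptm4a was at 887 ± 17.3 and 919 ± 17.1 CPM (SD, n = 4 per group) and was not called (log2 fold change 0.05, SE 0.03). Ctns, which exports cystine, had 11.8, 14.9, 14.2 and 11.8 CPM in the controls and 11.7, 10.6, 10.7 and 7.27 CPM in the knockdown. Knockdown replicate 4 was the lowest, and the call (edgeR log2 fold change -0.39 ± 0.12 SE, adjusted p = 0.017) was lost without it and without control replicate 2 or 3. The cholesterol transporter Npc1 and the calcium channel Mcoln1 had knockdown libraries all above the controls, and neither was called (0.17, SE 0.08, and 0.08, SE 0.05). The macrophage-rich Cd68 was expressed at 48.2 ± 0.93 FPKM in the controls (SD, n = 4) and was not called (-0.07, SE 0.05).

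Of 29 tested genes for sorting to lysosomes and for coats 3 rose and 1 fell. That was 13.8% called, below the 20.2% of all tested genes. With library totals 2 were higher and 4 lower, on FPKM 1 and 3, and without knockdown replicate 4 or control replicate 2 there were 2 higher and 1 lower. The background shares for these settings are those given for the hydrolases. M6pr, the smaller mannose 6-phosphate receptor, was at 579 ± 3.59 and 569 ± 10.6 CPM (SD, n = 4 per group, log2 fold change -0.03, SE 0.03, 95% interval -0.08 to 0.03). The larger receptor Igf2r was low, at 0.76 ± 0.05 FPKM in the controls, and was not called (log2 fold change 0.22, SE 0.13). The enzymes that build the mannose 6-phosphate tag were not called either, with log2 fold changes of 0.09 for Gnptab, 0.12 for Gnptg and -0.05 for Nagpa. Of 6 tested subunits of AP-3, the adaptor that carries membrane proteins to lysosomes, 2 rose, and of 7 tested AP-1 subunits 1 rose. The 4 tested AP-4 subunits and 3 GGA adaptors had log2 fold changes from -0.07 to 0.46 and were not called, with Ap4e1 (0.28, SE 0.13) the nearest at an unadjusted p of 0.0416 by edgeR. Ap3s1 had 28.8, 31.1, 28.8 and 32.0 CPM in the controls and 35.7, 37.0, 40.0 and 38.0 CPM in the knockdown. These groups did not overlap (edgeR log2 fold change 0.32 ± 0.07 SE, adjusted p = 0.000255). Ap3b1 rose by 0.28 (SE 0.08), and the AP-1 subunit Ap1s2 by 0.16 (SE 0.05), the latter with no call without control replicate 2 or knockdown replicate 2 or 4, with library totals or on FPKM. Clta, a clathrin light chain, had 260, 254, 264 and 261 CPM in the controls and 240, 237, 243 and 236 CPM in the knockdown. The fall was small and without overlap (edgeR log2 fold change -0.12 ± 0.03 SE, adjusted p = 0.00477).

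**Figure D3:**
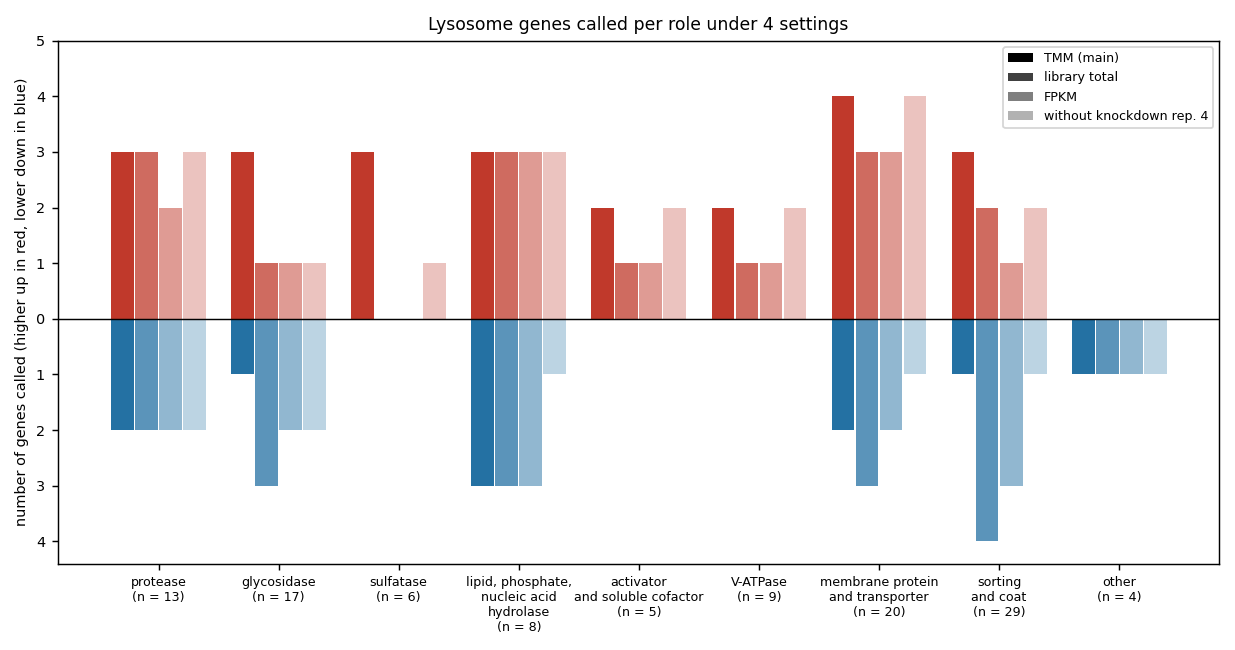
Number of lysosome genes called higher (red, upward) and lower (blue, downward) per role, for the main test, library totals, FPKM and the test without knockdown replicate 4 (dark to light). Sulfatases fall from 3 rises to 0 with library totals or on FPKM, while the lipid group keeps 3 rises under all 4 settings.

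The levels of lysosome transcripts spanned 0.25 to 1629 FPKM in the controls, with a median of 13.4 FPKM. The most abundant 5, Cd63, Ctsl, Lamp1, Atp6v0c and Ctsd, made up 49.7% of the summed FPKM of the 138 genes. Summed over all 138 genes, FPKM was 10334 ± 86.6 in the controls and 10741 ± 158 in the knockdown (SD, n = 4 per group), or 103.9% of control. The sum of the membrane proteins was 108% of control, that of the hydrolases 103% and that of the sorting and coat genes 94.8%. Knockdown replicate 4 had the highest hydrolase sum, 3361 FPKM against 3259 to 3267 FPKM in the other knockdown libraries and 3170 to 3219 FPKM in the controls.

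Rises were more frequent among abundant genes, in the pathway and outside it. Of 17 lysosome genes with a mean over 100 FPKM 9 rose and 2 fell, with a median log2 fold change of 0.10. Of all 1026 tested genes at that level 33.2% were higher and 5.46% lower, with a median of 0.05. Between 10 and 100 FPKM 10 of 46 lysosome genes rose, against 13.9% of all tested genes there. Under 10 FPKM 4 of 48 rose, against 6.07% of all tested genes there. The level of a gene thus moved with its chance of a call, and its part in the result was not tested.

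**Figure D4:**
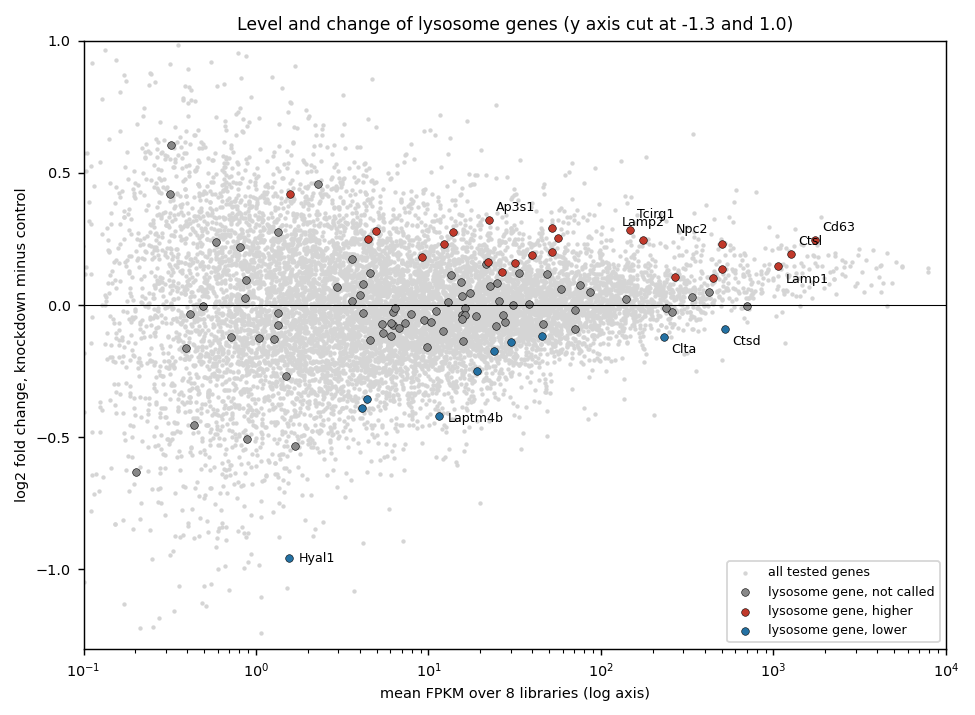
Mean FPKM over the 8 libraries (horizontal, log axis) and log2 fold change (vertical, cut at -1.3 and 1.0) of all 11576 tested genes (light grey) and of the 111 lysosome genes, coloured by call. Of the 17 lysosome genes with a mean over 100 FPKM, 9 rose, while Hyal1 is the lowest lysosome point near -0.96.

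Many lysosome genes share a promoter element bound by the MiT/TFE factors TFEB and TFE3, an E-box with the letters CACGTG and preferred flanks. RefSeq promoter windows (GRCm38.p6, 250 bases before to 50 after a start) were available for 88 of the 111 tested genes. The element GTCACGTG, on either strand, was found in 20 of these 88 genes, or 22.7%. It was found in 4.88% of the 9289 tested genes with a window and in 2.25% of all 32851 windows. The shorter CACGTG, which the longer one contains, was found in 24 of the 88. Of the 20 genes with GTCACGTG 4 rose and 1 fell, or 25% called, against 32.4% called among the 68 genes without it, and the median log2 fold changes were 0.07 and -0.01. These matches describe letters in a window and not binding sites. The stretches below lie wholly before a start and show the match (capitals) for members with unlike calls. Lamp1, Atp6v0b and Ap1s2 rose, Ctsd fell, and Mcoln1, Igf2r and Cln3 were not called. Cln3 was low, with 12.9 counts on average, and overlaps the gene Apobr, which had 634. A member not called need not have changed less, since Igf2r had a log2 fold change of 0.22 against 0.15 for Lamp1.
Lamp1, chr8:13159107-13159160, plus strand: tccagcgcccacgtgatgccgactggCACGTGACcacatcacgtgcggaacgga
Atp6v0b, chr4:117887334-117887393, minus strand: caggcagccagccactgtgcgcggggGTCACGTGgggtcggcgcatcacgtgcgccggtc
Ap1s2, chrX:163908874-163908933, plus strand: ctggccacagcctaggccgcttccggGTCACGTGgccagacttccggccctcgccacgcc
Ctsd, chr7:142387892-142387951, minus strand: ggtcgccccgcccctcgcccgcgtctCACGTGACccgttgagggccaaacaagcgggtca
Mcoln1, chr8:3500420-3500479, plus strand: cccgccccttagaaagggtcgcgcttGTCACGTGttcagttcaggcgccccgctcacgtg
Igf2r, chr17:12769723-12769782, minus strand: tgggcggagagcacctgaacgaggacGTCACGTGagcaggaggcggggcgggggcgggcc
Cln3, chr7:126583324-126583385, minus strand: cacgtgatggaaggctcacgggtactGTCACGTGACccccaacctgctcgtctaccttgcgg

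The factors themselves were mostly low. Tfe3 was at 79.6 and 80.4 CPM and was not called (log2 fold change 0.02, SE 0.05), with a sign that changed with the scaling. Tfeb had 2 to 11 counts per control library and 7 to 12 per knockdown library, and Mitf had at most 3, so neither was tested. Of 14 tested genes that dock and regulate the kinase mTORC1 on lysosomes 1 was called, the Rag GTPase regulator Flcn, which fell by 0.22 on the log2 scale (SE 0.05). Of 18 genes for lysosome fusion and positioning 3 fell. These were the tethering subunits Vps18 (-0.36, SE 0.07) and Vps33a (-0.15, SE 0.05) and the small GTPase Arl8a (-0.27, SE 0.06), which links lysosomes to kinesins. Of 21 further lysosomal genes outside the annotation 2 rose and 1 fell. These were the phosphodiesterase Smpdl3a (0.79, SE 0.15), the progranulin gene Grn (0.15, SE 0.03), which lost its call on FPKM, and Cln8 (-0.21, SE 0.06), a receptor for newly made lysosomal enzymes. In either direction 7.14% of the mTORC1 genes, 16.7% of the fusion and positioning genes and 14.3% of the further lysosomal genes were called. Over all tested genes 20.2% were called in either direction, and 9.15% were called lower.

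Other annotations in the same table divide the lysosome genes further. Of the 15 also annotated to glycosaminoglycan degradation 4 rose and 2 fell, and of the 13 also annotated to phagosomes 5 rose. Of the 5 also annotated to autophagy 4 rose and 1 fell, namely Ctsb, Ctsl, Lamp1 and Lamp2 against Ctsd. For comparison, 11.1% of all tested genes were higher and 9.15% lower, and 33.2% of those over 100 FPKM were higher. Of the called genes, 7 overlap another gene that had over 10% of their own counts. Asah1 overlaps Frg1, which fell by 0.23 on the log2 scale and was the only neighbour with a call among those examined. Ppt1 overlaps Cap1, which had 3705 counts on average against 1371 for Ppt1 and a log2 fold change of the same sign, 0.07 (SE 0.03). Galns overlaps Trappc2l, with 489.5 counts on average against 409 for Galns and a log2 fold change also of the same sign, 0.09 (SE 0.07). Hyal1 and Hyal3, described above, were both fitted below 0. Hyal1 also overlaps Naa80, which had 115 counts on average against 48.6 for Hyal1 and whose change was not examined. Ap1s2 overlaps Zrsr2, which had a log2 fold change of -0.10 (SE 0.06). Ap3s1 overlaps Atg12, which had 2538 counts on average against 464 for Ap3s1 and a log2 fold change of -0.02.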

How the data were processed

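RNA from TCMK-1 cells with control or smgGDS shRNA, all given 20 µM cisplatin, was sequenced in 4 libraries per group. The build GRCm38.p6 and the tools RSEM, HISAT2 2.4, Bowtie2 2.2.8, StringTie 1.3.1, edgeR, DESeq2 and fastp 0.18.0 are listed in the submitters' processing notes. Which annotation was counted, and whether by strand, is not given in the sources used. The authors deposited expected counts and FPKM per gene. Of the expected count values 6.52% were not whole, and all were rounded here. Lysosome genes were found by the table's pathway column, and the roles, other gene lists and cell type markers were chosen with earlier results of these data known.

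Counts were fitted across all genes with edgeR 4.0.16 (TMM, filterByExpr, robust quasi-likelihood test, two-sided) in R 4.3.3, with Benjamini-Hochberg adjustment over 11576 genes and a threshold of 0.05. The named genes are all members called, with landmark members of each role. Alternatives were other scalings, DESeq2 1.42.0, limma 3.58.1 (voom, and log2(FPKM + 0.5)), other filters, whole counts only, a replicate block and leaving out each library. A length and GC correction was added after seeing the data. Library totals make 3 counts worth 0.181 to 0.257 CPM, and the common biological coefficient of variation was 4.29%. On simulated counts for this comparison (11576 genes) the test called 22 of 50 genes with a log2 change of 0.3, 39 of 48 with 0.6 and 12 of 11271 unchanged genes. Gene names and promoters were taken from RefSeq (GRCm38.p6), and all 138 genes matched. Some genes are not reported here by name, though they are included in all counts.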

Additional observations from a re-analysis of the deposited data

Results flagged for a closer look

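A library lay far from the rest of its group of 4, by its gap to the nearest library relative to the group's range, in 9 of 120 cases, where chance gives about 1 in 20. Knockdown replicate 4 accounted for several. It was high for Hexa, at 125.6 CPM with the nearest library at 109 CPM, and for Asah1, at 142.8 CPM against 127.2 CPM. It was low for Atp6v1b2, at 69.8 CPM against 78.8 CPM. Its summed FPKM was high for the proteases, at 2732 against 2664, and for all hydrolases, at 3361 against 3267. Control replicate 2 was low for Scarb2, at 37.0 CPM against 41.7 CPM, and for the summed FPKM of the V-ATPase, at 1386 against 1416. Control replicate 1 was low for the summed FPKM of the glycosidases, at 303.5 against 309.8. Knockdown replicate 2 was high for the summed FPKM of the sorting and coat genes, at 893.5 against 884.2.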

How the results depend on the processing

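Of 925 comparisons of single genes with an alternative, over 49 genes, 829 kept direction and side of the threshold, 77 lost the call, 2 gained it and 17 changed sign. With library totals 14 lysosome genes were higher and 16 lower, with a median log2 fold change of -0.057, Atp6v0d1 at -0.010, Atp6v1h at -0.047 and Tfe3 at -0.041. On FPKM 12 were higher and 13 lower, with a median of -0.052, Hexa at -0.00044, Atp6v0d1 at -0.013, Atp6v1h at -0.035 and Tfe3 at -0.050. With the length and GC correction the median was 0.032, Atp6v1h -0.019 and Tfe3 -0.0048, and with the replicate block added they were 0.027, -0.014 and -0.0045. Leaving out each library in turn gave 16 to 22 higher, 6 to 9 lower and medians of -0.013 to 0.024. Over these fits Atp6v0d1 ranged from -0.014 to 0.12, Atp6v1h from -0.032 to 0.055 and Tfe3 from -0.0082 to 0.037. The cause was not tested. The labels do not pair libraries by replicate number, and pairing was not settled here. Deviations of same-numbered libraries correlated at 0.056, 0.083, -0.036 and 0.056, and those of differently numbered libraries at -0.062 to 0.038. The replicate block gave 26 higher and 11 lower lysosome genes, against 12.3% and 10.7% of all tested genes. Depth limits genes such as Ctsk and Atp6v0a4, below 1 CPM, whose intervals are wide.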
